A study of Mus musculus with 8 samples.

Results

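The genes described here build the MHC class I antigen presentation pathway of mouse embryonic fibroblasts (MEFs). The 10 members were taken by symbol from the deposited table of 12528 genes, and all 10 were listed there. They are the heavy chains H2-K1, H2-D1 and H2-T23, the light chain B2m, the peptide transporter subunits Tap1 and Tap2, the loading factor Tapbp, and the inducible proteasome subunits Psmb8, Psmb9 and Psmb10. RNA was sequenced from immortalized MEFs of WT and Cav1KO littermate mice, the latter lacking caveolin-1, the main scaffold protein of caveolae. Cells were seeded at low confluence on stiff or on soft polyacrylamide gels coated with fibronectin, and RNA was taken after 24 h. There were 4 groups of 2 libraries each, WT and Cav1KO cells on the stiff gel and both on the soft gel, called WT stiff, Cav1KO stiff, WT soft and Cav1KO soft. The labels do not say whether the 2 libraries of a group came from separate cultures, so the p-values measure only the spread between these samples, which may be technical. Genotype and cell line cannot be told apart in this design, since each genotype was given as 1 source of cells.

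MHC class I molecules carry peptides from inside the cell to its surface, where T cells inspect them. The proteasome cuts proteins into peptides, the TAP transporter moves the peptides into the endoplasmic reticulum, tapasin holds the empty class I molecule next to TAP, and the loaded heavy chain leaves with beta-2-microglobulin. Most nucleated cells make class I molecules, fibroblasts included. Interferons raise the transcription of the heavy chains, of TAP and of the inducible proteasome subunits, which then replace their standard counterparts and form the immunoproteasome.

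Levels are given in CPM after TMM normalization, that is, a gene's reads divided by the size of the library and by a scaling factor set for each library. All values were whole multiples of the value of 1 read, so that reads could be recovered, from 17089836 to 19944952 per library. The targeted gene Cav1 ranged from 949.8 to 1157 CPM in WT cells and did not exceed 0.411 CPM in any Cav1KO library. Of 14 fibroblast markers 12 were listed, with summed levels on stiff of 11547 to 11625 CPM in WT and 6355 to 7538 in Cav1KO cells, and on soft of 15369 to 15371 and 16409 to 16519. Thy1 and Lum were not listed. None of the 7 endothelial, 7 epithelial and 6 muscle markers was listed. Of 14 leukocyte markers only Cd14 and Cd68 were listed, and Ptprc, which defines leukocytes, was not. Their summed level on stiff was 24.9 to 29.6 CPM in WT and 96.2 to 103.6 in Cav1KO cells, and on soft 35.1 to 40.4 and 92.8 to 94.7. Fewer cells of a type and less RNA per cell cannot be told apart in such bulk samples.

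In the GENCODE M21 annotation of GRCm38, 8 members lie in the MHC on chromosome 17. From one end to the other these are Tapbp (chr17:33915899-33929292, plus strand), H2-K1 (chr17:33996017-34000347, minus strand), Psmb9 (chr17:34181987-34187764, minus strand), Tap1 (chr17:34187553-34197225, plus strand), Psmb8 (chr17:34197721-34201454, plus strand), Tap2 (chr17:34203527-34216321, plus strand), H2-D1 (chr17:35262730-35267499, plus strand) and H2-T23 (chr17:36029773-36032855, minus strand). B2m (chr2:122147686-122153083, plus strand) and Psmb10 (chr8:105935735-105938444, minus strand) lie outside it. Tap1 and Psmb9 are transcribed away from each other and overlap over 212 bases at their starts in this annotation. The library kit does not mark strand, so reads of this stretch could not be told apart.

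The promoters of the members are shown because interferon and NF-kappaB signals act on class I genes through short sites close to the start. RefSeq windows of GRCm38.p6, from 250 bases before to 50 bases after the start, matched 9 of the 10 members, and the first of the 2 windows of H2-K1 was used. The RefSeq starts lie within 3 bases of the GENCODE starts given above for B2m, H2-K1 and Tap1. They lie farther along the gene by 52 bases for Psmb10, 154 for H2-T23, 364 for H2-D1, 434 for Psmb9, 474 for Psmb8 and 3579 for Tapbp. The windows of these 6 genes therefore cover, in part or whole, sequence that GENCODE places within the gene, and distances to a start below are to the RefSeq start. The first printed stretch is that of H2-K1 (chr17:34000348-34000458, minus strand), which ends just before the start. The second is that of B2m (chr2:122147542-122147619, plus strand), from 145 to 68 bases before the start. The others are stretches of 30 bases from H2-D1 (chr17:35262923-35262952, plus strand) and H2-T23 (chr17:36032805-36032834, minus strand). Capitals mark matches to the motifs given below.
H2-K1: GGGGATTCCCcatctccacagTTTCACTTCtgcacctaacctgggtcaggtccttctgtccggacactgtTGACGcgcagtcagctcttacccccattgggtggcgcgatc
B2m: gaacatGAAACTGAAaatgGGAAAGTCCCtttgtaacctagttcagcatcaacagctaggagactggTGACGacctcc
H2-D1: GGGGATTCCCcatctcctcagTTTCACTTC
H2-T23: tcctactgctTTCTCTTTCataaagacaca

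Both strands of every window were searched. The core of the interferon-stimulated response element (GAAANNGAA or GAANNGAAA) was present in 4 of the 9 members with a window, B2m, H2-K1, H2-D1 and H2-T23, and in 14.8% of all 32851 promoter windows. It began 139 bases before the RefSeq start in B2m, 90 in H2-K1, 150 in H2-D1 and 123 in H2-T23. A kappaB motif (GGG, any 2 bases, TT, any base, CC), the kind of site NF-kappaB binds, was present in B2m, H2-K1 and H2-D1 and in 4.79% of all windows. In H2-K1 and H2-D1 the same 10 letters of this motif stood in front of the same interferon core, and 29 of the 30 bases that span both were identical. H2-T23 had the interferon core alone. The interferon-gamma motif TTCNNNGAA was present in Psmb8, 97 bases before its RefSeq start, and in 8.30% of all windows. The letters TGACG, found in cyclic AMP response elements, were present in B2m, H2-K1, H2-D1, Tap1 and Psmb9 and in 20.8% of all windows. In Tap1 and Psmb9 it was 1 and the same site (chr17:34187470-34187474), 86 bases before the RefSeq start of Tap1 and 144 before that of Psmb9, within the stretch that GENCODE gives to Psmb9. Tapbp and Psmb10 matched none of these letters within the window. A match describes the sequence and is not a measured binding site.

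All 10 members were lower on stiff than on soft gels, in both genotypes (limma on log2(CPM + 1), Benjamini-Hochberg adjusted p under 0.05). In Cav1KO cells the call of H2-T23 rests on 7 reads on stiff and 38 on soft. With edgeR on the recovered reads it did not pass (adjusted p = 0.0503). Of all 12494 genes tested, 26.3% were called lower on stiff in WT and 28.2% in Cav1KO cells. Across the members the median difference between stiff and soft was -1.70 in WT and -1.95 in Cav1KO cells on this log2 scale, beside -0.02 over all genes in either genotype. Every stiff library lay below every soft library for each member in each genotype, which 39.6% of all genes showed in WT and 40.2% in Cav1KO cells. The size of the change ranged from 2.33-fold (Psmb10) to 6.64-fold (Psmb9) in the WT means and from 1.92-fold (Psmb10) to 5.38-fold (Psmb9) in the Cav1KO means.

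**Figure D1:**
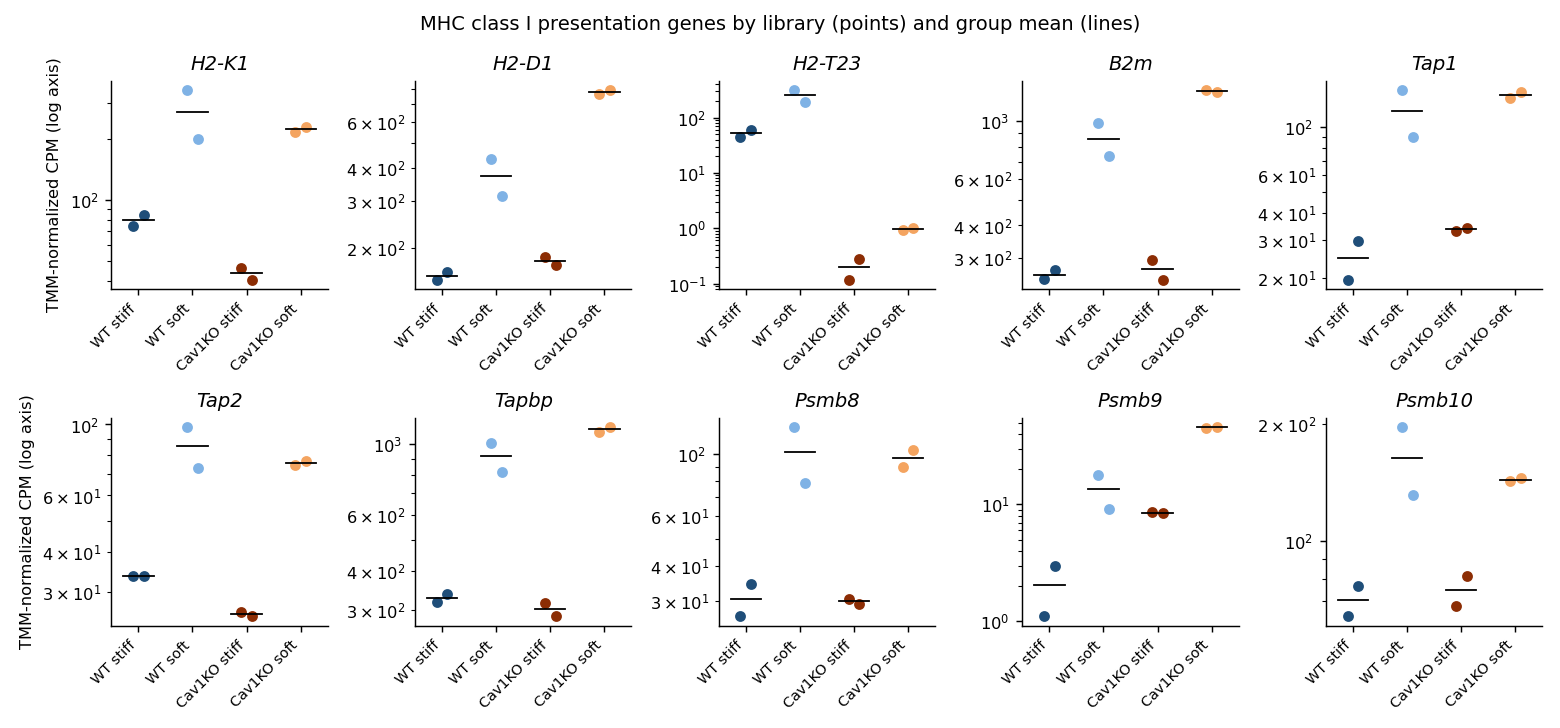
TMM-normalized CPM (log axis, scaled for each gene) of the 10 members in each library (points) and as the group mean (lines), with WT in blue, Cav1KO in brown and orange, and the darker shade for stiff. For every gene both soft libraries of a genotype lie above both of its stiff libraries, and H2-T23 reaches no more than 1.03 CPM in any Cav1KO library.

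The classical heavy chains H2-K1 and H2-D1, which present peptides to CD8 T cells, were both lower on stiff. Between the genotypes, H2-K1 was called lower in Cav1KO cells on stiff only, and H2-D1 higher on soft only. H2-K1 (ENSMUSG00000061232) was at 74.7 and 84.4 CPM in WT stiff, 345.8 and 199.0 in WT soft, 46.4 and 40.6 in Cav1KO stiff, and 217.1 and 228.9 in Cav1KO soft. H2-D1 (ENSMUSG00000073411) was at 151.8 and 162.7 CPM in WT stiff, 433.9 and 313.4 in WT soft, 185.2 and 172.6 in Cav1KO stiff, and 762.3 and 789.0 in Cav1KO soft. The Cav1KO soft libraries were the highest of all for H2-D1, whereas for H2-K1 they lay between the 2 WT soft libraries. H2-K1 differed between stiff and soft by -1.71 ± 0.21 (SE, adjusted p = 0.000349) in WT and by -2.34 ± 0.21 (adjusted p = 5.31e-05) in Cav1KO cells. H2-D1 differed by -1.23 ± 0.13 (adjusted p = 0.000201) in WT and by -2.11 ± 0.13 (adjusted p = 1.46e-05) in Cav1KO cells. Both genes share stretches with other class I genes. Of the 60-nt windows in their transcripts, 2.998% for H2-K1 and 9.10% for H2-D1 also occur in another annotated gene. The H2 haplotype of the cells is not given in the sources used here, and reads were counted against the reference alleles.

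B2m (ENSMUSG00000060802), the light chain that every class I heavy chain needs to reach the surface, was at 248.9 and 269.9 CPM in WT stiff, 980.2 and 736.3 in WT soft, 295.9 and 248.6 in Cav1KO stiff, and 1309 and 1286 in Cav1KO soft. The 4 stiff libraries overlapped between the genotypes, and on soft both Cav1KO libraries lay above both WT libraries. The difference between stiff and soft was -1.71 ± 0.14 (SE, adjusted p = 6.22e-05) in WT and -2.25 ± 0.14 (adjusted p = 1.33e-05) in Cav1KO cells. Its transcript shares no 60-nt window with another annotated gene.

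The transporter genes Tap1 and Tap2, whose products form 1 channel together, fell on stiff by different amounts. Tap1 (ENSMUSG00000037321) was at 19.7 and 29.7 CPM in WT stiff, 148.0 and 90.2 in WT soft, 33.2 and 34.3 in Cav1KO stiff, and 136.2 and 145.6 in Cav1KO soft. Tap2 (ENSMUSG00000024339) was at 33.7 and 33.6 CPM in WT stiff, 98.1 and 73.0 in WT soft, 26.0 and 25.2 in Cav1KO stiff, and 74.8 and 77.1 in Cav1KO soft. Tap1 fell by 2.21 ± 0.23 (SE, adjusted p = 0.000174) on the log2 scale in WT and by 2.03 ± 0.23 (adjusted p = 0.000155) in Cav1KO cells. Tap2 fell by 1.30 ± 0.13 (adjusted p = 0.000123) and 1.54 ± 0.13 (adjusted p = 3.36e-05). Per kb of the longest annotated transcript, there were 85.6 Tap1 for each 100 Tap2 in WT and 154.0 in Cav1KO cells on stiff, and 159.9 and 216.1 on soft (means of 2 libraries). In each genotype both soft libraries had a higher ratio than both stiff libraries. Of the 60-nt windows in their transcripts, 5.59% for Tap1 and 10.7% for Tap2 also occur in another annotated gene. Tap2 overlaps the predicted genes Gm15821 and Gm20496, and the counts and their ratio are uncertain to that extent.

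Tapbp (ENSMUSG00000024308), which encodes tapasin, was at 318.1 and 338.2 CPM in WT stiff, 1012 and 819.1 in WT soft, 317.0 and 287.1 in Cav1KO stiff, and 1094 and 1132 in Cav1KO soft. The stiff groups lay close to each other, and all soft libraries were above 800 CPM. It differed between stiff and soft by -1.47 ± 0.11 (SE, adjusted p = 4.67e-05) in WT and by -1.88 ± 0.11 (adjusted p = 1.13e-05) in Cav1KO cells. Tapbp overlaps Zbtb22 and the predicted gene Gm19412 and shares 20.3% of its 60-nt windows with other annotated genes, so its count is uncertain to that extent.

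The inducible proteasome subunits were lower on stiff in both genotypes, and Psmb9 was the scarcest of them in every group. Psmb8 (ENSMUSG00000024338), the chymotrypsin-like subunit, was at 26.4 and 34.5 CPM in WT stiff, 124.6 and 78.8 in WT soft, 30.5 and 29.3 in Cav1KO stiff, and 90.1 and 103.4 in Cav1KO soft. Psmb10 (ENSMUSG00000031897), the trypsin-like subunit, was at 64.1 and 76.7 CPM in WT stiff, 196.1 and 131.3 in WT soft, 68.1 and 81.4 in Cav1KO stiff, and 142.5 and 144.9 in Cav1KO soft. For both genes the ranges of the 2 genotypes overlapped on each substrate. Psmb9 (ENSMUSG00000096727), which takes the place of the caspase-like subunit, was at 1.10 and 2.96 CPM in WT stiff, 17.9 and 9.08 in WT soft, 8.53 and 8.44 in Cav1KO stiff, and 45.5 and 45.8 in Cav1KO soft. Here each Cav1KO library lay above each WT library on stiff, and likewise on soft, and Cav1KO stiff stood just below the lower WT soft library. The differences between stiff and soft were -1.68 ± 0.20 for Psmb8, -2.26 ± 0.33 for Psmb9 and -1.18 ± 0.18 for Psmb10 in WT cells (SE, adjusted p = 0.000301, 0.000781 and 0.000848). In Cav1KO cells they were -1.66 ± 0.20, -2.30 ± 0.33 and -0.94 ± 0.18 (adjusted p = 0.000216, 0.000527 and 0.00213). The fitted WT value of Psmb9 was -1.37 with a pseudocount of 5 CPM, since its level in WT stiff is low.

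**Figure D2:**
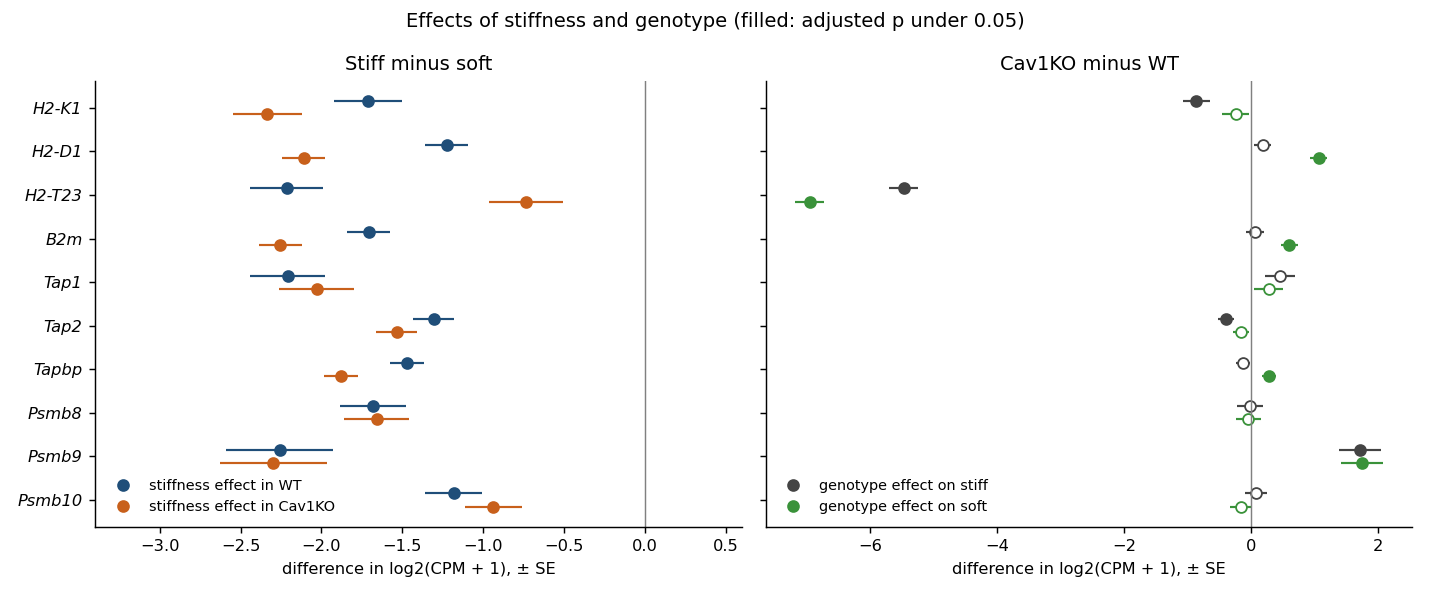
Differences in log2(CPM + 1) with their SE for each member. Left, stiff minus soft in WT (blue) and Cav1KO (orange), where all values lie below 0. Right, Cav1KO minus WT on stiff (grey) and on soft (green), where H2-T23 stands at -5.47 and -6.95 and Psmb9 at 1.72 and 1.75. Filled points passed an adjusted p of 0.05.

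The inducible subunits moved against their standard counterparts. Psmb5, Psmb6 and Psmb7, the catalytic subunits that Psmb8, Psmb9 and Psmb10 replace in that order, had all stiff libraries above all soft ones in both genotypes, with differences of 0.32, 0.33 and 0.47 in WT (adjusted p = 0.05002, which did not pass for Psmb5, then 0.0439 and 0.00175). In Cav1KO cells they rose by 0.94, 0.91 and 0.84 (adjusted p = 0.000257, 0.000271 and 6.42e-05). Per kb, Psmb8 amounted on stiff to 4.77 ± 0.35 for each 100 Psmb5 in WT and 5.03 ± 0.89 in Cav1KO cells (SD, n = 2), and on soft to 19.98 ± 5.7 and 31.0 ± 0.69. Psmb9 amounted on stiff to 0.336 ± 0.18 for each 100 Psmb6 in WT and 1.35 ± 0.21 in Cav1KO cells, and on soft to 2.87 ± 1.2 and 13.6 ± 0.44. Psmb10 amounted on stiff to 18.0 ± 0.80 for each 100 Psmb7 in WT and 22.8 ± 1.4 in Cav1KO cells, and on soft to 58.1 ± 16 and 78.9 ± 2.9. For all 3 pairs the Cav1KO soft libraries had the highest ratios, and no ratio reached 100. These are ratios of transcripts and were not tested.

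**Figure D3:**
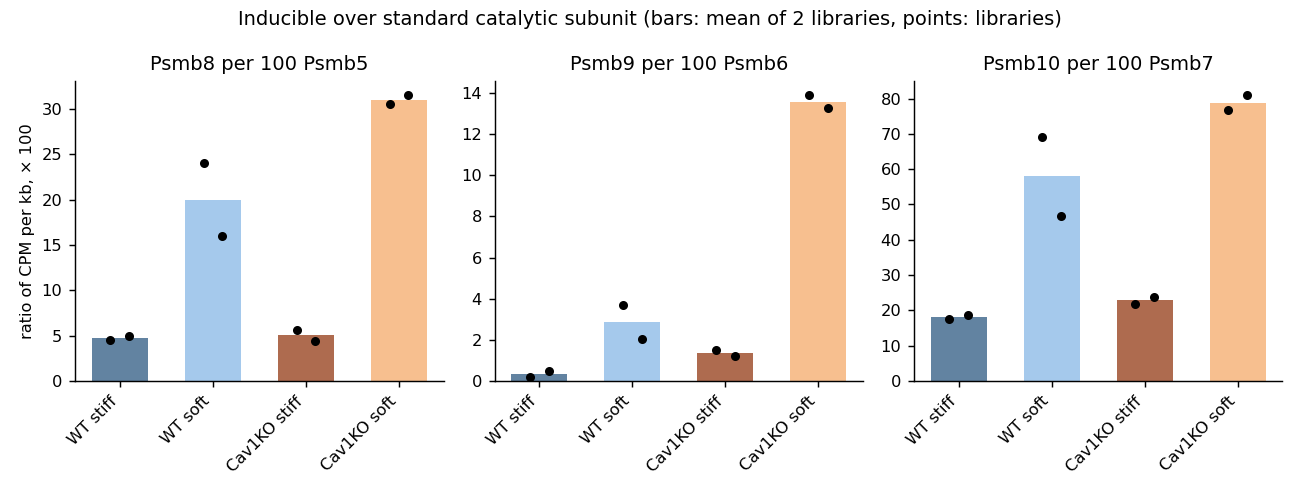
Inducible over standard catalytic proteasome subunit, as CPM per kb of the longest transcript times 100, for Psmb8 and Psmb5, Psmb9 and Psmb6, and Psmb10 and Psmb7. Bars are means of 2 libraries and points the libraries. In each panel both soft groups stand above both stiff groups, with Cav1KO soft highest at means of 31.0, 13.6 and 78.9.

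The order of the members' levels per kb began alike in all groups. B2m came first, Tapbp next and then H2-D1 in each, every library of the higher gene lying above every library of the next, except that in WT soft H2-D1 overlapped H2-T23. On stiff B2m stood at 301.6 CPM per kb in WT and 316.6 in Cav1KO cells, and on soft at 997.9 and 1509. At the other end stood Psmb9 in the WT groups, at 1.505 and 9.99 CPM per kb on stiff and soft, and H2-T23 in the Cav1KO groups, at 0.133 and 0.669. In WT soft the 3 heavy chains lay within 178 to 168 CPM per kb in their means and could not be ordered. H2-K1, H2-D1 and H2-T23 together amounted to 52.9 ± 2.2 for each 100 B2m in WT stiff and 51.2 ± 5.7 in WT soft, and to 35.5 ± 2.3 and 33.6 ± 1.4 in Cav1KO stiff and soft (SD, n = 2, per kb). The libraries of the 2 substrates overlapped in this ratio within each genotype, and all Cav1KO libraries lay below all WT libraries. Without H2-T23 the ratio was 41.1 ± 0.27 in WT and 35.5 ± 2.2 in Cav1KO cells on stiff, where the libraries of the genotypes stayed apart, and 34.3 ± 3.6 and 33.6 ± 1.4 on soft, where they overlapped. The lower ratio of Cav1KO cells on soft thus rested on H2-T23.

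Between the genotypes the members did not move as a group. On stiff, Psmb9 was higher in Cav1KO cells and H2-T23, H2-K1 and Tap2 were lower, beside 25.0% of all genes called higher and 26.6% called lower. On soft, Psmb9, H2-D1, B2m and Tapbp were higher and H2-T23 was lower, beside 24.1% and 29.9% of all genes. A tested gene had to reach 1 CPM in 2 libraries, and H2-T23 did so only through the WT libraries. The median over the members was 0.03 on stiff and 0.12 on soft, where that of all genes was -0.03 on each. Psmb9 differed between Cav1KO and WT by 1.72 ± 0.33 on stiff (SE, adjusted p = 0.00270) and by 1.75 ± 0.33 on soft (adjusted p = 0.00222). The ratio of its recovered reads was 4.29 on stiff (95% interval 3.32 to 5.62, 299 against 74 reads) and 3.44 on soft (3.11 to 3.82, 1760 against 466 reads), an interval that covers counting error only. Psmb9 shares 9.11% of its windows with Tap1, the gene at its start, and Tap1 differed by 0.46 ± 0.23 on stiff (adjusted p = 0.128) and 0.28 ± 0.23 on soft (adjusted p = 0.330).

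H2-D1 was 2.08-fold higher in Cav1KO than in WT cells on soft, a difference of 1.07 ± 0.13 (SE, adjusted p = 0.000219), and 1.14-fold higher on stiff, 0.19 ± 0.13 (adjusted p = 0.278). B2m differed by 0.61 ± 0.14 on soft (adjusted p = 0.00518) and by 0.07 ± 0.14 on stiff (adjusted p = 0.713). H2-K1 went the other way, with -0.86 ± 0.21 on stiff (adjusted p = 0.00935) and -0.23 ± 0.21 on soft (adjusted p = 0.380). The H2-K1 call on stiff was lost without WT stiff replicate 2 (adjusted p = 0.0522), and on soft the value was 0.16 without WT soft replicate 1 and -0.63 without WT soft replicate 2 (adjusted p = 0.00507). Per kb, H2-K1 stood at 65.6 ± 2.4 and 93.0 ± 15 for each 100 H2-D1 in WT stiff and soft and at 31.5 ± 1.4 and 37.3 ± 0.49 in Cav1KO stiff and soft (SD, n = 2), with all Cav1KO libraries below all WT libraries. The smaller differences of Tap2 on stiff, -0.38 ± 0.13 (adjusted p = 0.0314), and Tapbp on soft, 0.29 ± 0.11 (adjusted p = 0.0460), stood close to the threshold. The Tap2 call was lost without either WT stiff library, either Cav1KO stiff library or either Cav1KO soft library (adjusted p from 0.0552 to 0.104). The Tapbp call was lost without either WT stiff library, either Cav1KO soft library or WT soft replicate 2 (adjusted p from 0.0584 to 0.281). Psmb8 and Psmb10 were not called on either substrate, with differences from -0.16 to 0.09.

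H2-T23 (ENSMUSG00000067212), the heavy chain of Qa-1, which inhibitory receptors of natural killer cells read, did not exceed 1.03 CPM in any library of Cav1KO cells. It was at 44.3 and 60.9 CPM in WT stiff and at 309.5 and 194.1 in WT soft, against 0.118 and 0.274 in Cav1KO stiff and 0.941 and 1.03 in Cav1KO soft. These last values rest on 2 and 5 reads on stiff and on 18 and 20 reads on soft. Cav1KO minus WT was -5.47 ± 0.23 on stiff (SE, adjusted p = 3.68e-07) and -6.95 ± 0.23 on soft (adjusted p = 9.09e-08) on the log2(CPM + 1) scale, which understates a change of this size, and edgeR on the recovered reads gave -7.998 and -7.986. The ratio of WT to Cav1KO reads was 262 on stiff (95% interval 127 to 653, 1951 against 7 reads) and 252 on soft (184 to 357, 8734 against 38 reads). Of the 60-nt windows of H2-T23, 22.1% also occur in other annotated genes, H2-T22 first among them. The gene A930015D03Rik overlaps H2-T23, and the kit does not mark strand. Whether the few Cav1KO reads came from any of these genes was not tested. The limit named for H2-K1 and H2-D1, reads counted against reference alleles in cells of unstated H2 haplotype, holds for H2-T23 as well, and its part in this difference was not tested.

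Stiffness changed H2-T23 by -2.22 ± 0.23 in WT cells (SE, adjusted p = 0.000160). In Cav1KO cells the value was -0.73 ± 0.23 (adjusted p = 0.0233), and 38 reads on soft stood against 7 on stiff, a ratio of 4.96 (95% interval 2.19 to 13.2). This Cav1KO call was lost with a pseudocount of 5 CPM (-0.20, adjusted p = 0.431), with quantile normalization (-0.45, adjusted p = 0.124) and with edgeR (-2.27, adjusted p = 0.0503). It was also lost without Cav1KO stiff replicate 1, Cav1KO soft replicate 1 or Cav1KO soft replicate 2 (adjusted p from 0.0749 to 0.0938).

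The genes around H2-T23 moved in both directions. Of 9 other tested genes whose midpoints lie within 100 kb, 3 were lower and 3 higher in Cav1KO cells on soft, with a median of 0.06. Of all genes 29.9% were lower and 24.1% higher on soft. On stiff 2 of the 9 were lower and 2 higher, beside 26.6% and 25.0% of all genes. The neighbours were not tested as a group. H2-T22, a nonclassical heavy chain gene 8.62 kb away, was at 306.5 CPM or more in all soft libraries and differed between the genotypes by 0.08 on soft (adjusted p = 0.775) and 0.37 on stiff (adjusted p = 0.161). Its neighbour H2-T24, 18.2 kb on the other side, was lower in Cav1KO cells by values of -1.82 on soft (adjusted p = 0.000171) and -1.34 on stiff (adjusted p = 0.00104). Further along the MHC, H2-Q7 was at 9.18 and 4.08 CPM in WT soft and at 0.680 and 0.257 in Cav1KO soft, a difference of -2.31 (adjusted p = 0.000259), and H2-Q4 differed by -0.91 (adjusted p = 0.00751). H2-T22, H2-T24 and H2-Q7 were chosen for mention after their values were seen. Genes of the H2-T and H2-Q groups are near copies of each other, so that counts may be split among them, and these too were counted against the reference alleles. H2-Q7, like H2-T23, reached 1 CPM in 2 libraries only through WT cells.

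**Figure D4:**
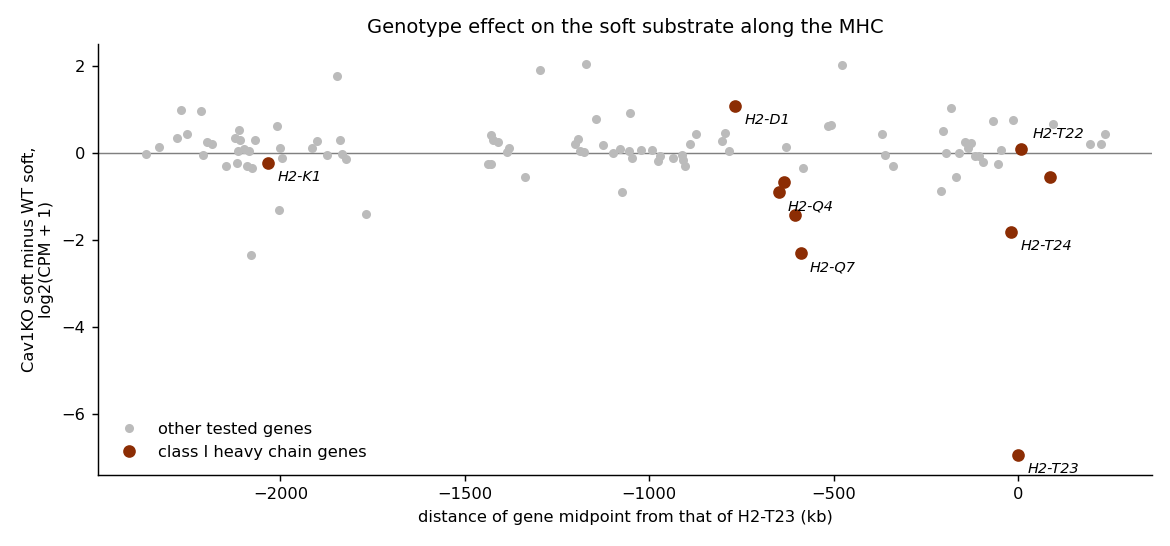
Cav1KO soft minus WT soft in log2(CPM + 1) for the tested genes of the MHC, against the distance in kb of each gene's midpoint from that of H2-T23. Class I heavy chain genes are in brown, among them H2-T23 at -6.95, H2-T22 beside it at 0.08 and H2-D1 at 1.07, and all other tested genes in grey.

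Whether the response to stiffness differed between the genotypes was tested as the WT effect minus the Cav1KO effect. Of the members H2-D1 passed, at 0.89 ± 0.19 (SE, adjusted p = 0.0310), its fall on stiff being larger in Cav1KO cells. H2-T23 passed in the other direction, at -1.48 ± 0.32 (adjusted p = 0.0322). This value depends on the 1 CPM added before the log, since H2-T23 did not exceed 1.03 CPM in any Cav1KO library. It had reached the filter only through WT libraries. Its mean CPM on soft was 4.79 times that on stiff in WT and 5.03 times in Cav1KO cells. Over all genes 10.5% passed in either direction. On the recovered reads the H2-T23 difference was 0.012 with edgeR (adjusted p = 0.987) and 0.060 with DESeq2 (adjusted p = 0.966). It was also lost with a pseudocount of 0.5 CPM (adjusted p = 0.0683) and without WT stiff replicate 1, WT soft replicate 1, Cav1KO stiff replicate 2 or either Cav1KO soft library (adjusted p from 0.0726 to 0.131). The H2-D1 call was lost without the mean-variance trend (adjusted p = 0.0558) and without either WT stiff library, Cav1KO stiff replicate 2 or either Cav1KO soft library (adjusted p from 0.0528 to 0.123). B2m stood at 0.54 ± 0.19 (adjusted p = 0.0899), H2-K1 at 0.62 ± 0.30 (adjusted p = 0.177) and Tapbp at 0.41 ± 0.15 (adjusted p = 0.0972). Tap1, Tap2, Psmb8, Psmb9 and Psmb10 stood between -0.24 and 0.23 (adjusted p of 0.378 or more).

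In the summed level of the members, the 2 WT soft libraries differed from each other more than the 2 libraries of any other group. Replicate 1 was above replicate 2 for all 10 members, with sums of 3666 and 2644 CPM, against 983 and 1094 in WT stiff, 1011 and 928 in Cav1KO stiff, then 3872 and 3953 in Cav1KO soft. Without WT soft replicate 1, all 10 members were still called lower on stiff in WT cells, with values from -1.88 for H2-T23 to -0.90 for Psmb10.

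Among other class I and class I-like heavy chains 13 of 25 genes were listed, and most of these were lower on stiff as well. All 13 were lower on stiff in WT cells and 9 of 13 in Cav1KO cells, with median differences of -1.003 and -0.81. The share of all genes lower on stiff was 26.3% in WT and 28.2% in Cav1KO cells. Of the 13, H2-Q5 and H2-Q6 reached 1 CPM in 2 libraries only through WT soft, so that their fall on stiff in WT was fixed by that filter. Of the other 11, all were lower in WT and 9 in Cav1KO cells. Fcgrt, the neonatal receptor for IgG, differed by -2.32 in WT (adjusted p = 9.01e-05) and -2.37 in Cav1KO cells (adjusted p = 4.44e-05), and H2-Q4 by -2.21 and -2.54 (adjusted p = 0.000132 and 4.03e-05). Between the genotypes, 7 of the 13 were lower and 2 higher in Cav1KO cells on soft, and 5 were lower and 1 higher on stiff. Without H2-Q5, H2-Q6 and H2-Q7, which passed the filter only through WT libraries, 4 of 10 were lower and 2 higher on soft, and 4 were lower and 1 higher on stiff. Of all genes 29.9% were lower and 24.1% higher on soft, and 26.6% and 25.0% on stiff. The list was not tested against all genes. Mr1, which presents vitamin B metabolites, was among the listed heavy chains higher in Cav1KO cells on soft, by 0.53 (adjusted p = 0.00257).

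The other machinery genes of the pathway did not fall together on stiff. Of 10 further peptide loading and quality control genes, 4 were higher and 3 lower on stiff in WT cells, and 7 were higher and 2 lower in Cav1KO cells. Of all genes 22.1% were called higher on stiff in WT and 27.9% in Cav1KO cells, and 26.3% and 28.2% were called lower. The falls in this list were thus near the share of all genes. The falls that both genotypes shared were in Tapbpl, a relative of tapasin, at -1.29 and -1.13 (adjusted p = 0.000174 and 0.000195), and in Erap1, which trims peptides in the endoplasmic reticulum, at -0.51 and -0.92 (adjusted p = 0.00822 and 0.000299). Calr, the chaperone calreticulin, rose by 0.72 on stiff in Cav1KO cells (adjusted p = 9.06e-05) and stood at -0.05 in WT cells (adjusted p = 0.637). Of 11 other subunits of the 20S proteasome, 9 were higher on stiff in WT and 11 in Cav1KO cells, with medians of 0.33 and 0.81 and none lower. Among 9 proteasome activator and assembly genes the only falls were those of Psme1 and Psme2, the subunits of the interferon-inducible PA28 activator. Psme1 differed by -1.05 in WT and -1.08 in Cav1KO cells (adjusted p = 0.000128 and 6.34e-05) and Psme2 by -0.68 and -0.49 (adjusted p = 0.00274 and 0.0107), while 3 of the 9 rose in WT and 7 in Cav1KO cells, Psme3 by 0.83 and 0.89 (adjusted p = 0.000150 and 6.12e-05). Of 6 cytosolic peptidases, 3 rose in WT and 2 in Cav1KO cells and none fell.

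Of 20 transcription regulators of class I genes, 9 were lower and 3 higher on stiff in WT cells, and 12 were lower and 4 higher in Cav1KO cells. Without the 1 gene that reached the filter only on soft, 11 of 19 were lower in Cav1KO cells. Nlrc5, the class I transactivator, was at 1.10 and 0.741 CPM in WT stiff, 6.16 and 3.39 in WT soft, 1.53 and 1.53 in Cav1KO stiff, and 8.89 and 9.57 in Cav1KO soft. It differed between stiff and soft by -1.55 in WT (adjusted p = 0.000762) and -2.01 in Cav1KO cells (adjusted p = 0.000141). Irf1, which binds interferon response elements, differed by -0.74 and -0.88 (adjusted p = 0.000186 and 4.87e-05), and Stat2 and Irf9, which act in type I interferon signalling, differed by -2.29 and -1.77 in WT cells and by -2.996 and -2.40 in Cav1KO cells. Nlrc5 had both stiff libraries below both soft libraries in each genotype.

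Interferon-stimulated genes outside the pathway fell with the members. Of 46 tested, 45 were lower on stiff in WT and 44 in Cav1KO cells, and none was higher, with medians of -2.09 and -2.70. Of these, 7 (Oas2, Oas3, Mx1, Mx2, Gbp4, Gbp5 and Cxcl11) reached 1 CPM in 2 libraries only through the soft libraries, which favoured a fall on stiff. Of the other 39, 38 were lower on stiff in each genotype, with medians of -2.10 and -2.78. The share of all genes lower on stiff was 26.3% in WT and 28.2% in Cav1KO cells. Ifit3, an antiviral gene, was at 9.24 and 19.7 CPM in WT stiff, 297 and 167 in WT soft, 6.77 and 4.49 in Cav1KO stiff, and 189 and 185 in Cav1KO soft, differences of -3.94 and -4.85 (adjusted p = 8.62e-05 and 2.17e-05). Among 12 interferon receptor and kinase genes, which include the feedback inhibitors of the pathway, 7 were lower and none higher on stiff in WT cells, and 6 were lower and 1 higher in Cav1KO cells. The largest fall was that of Usp18, a feedback inhibitor, at -3.25 and -4.02 (adjusted p = 9.64e-05 and 2.30e-05). Between the genotypes, 27 of the 46 interferon-stimulated genes were lower in Cav1KO cells on stiff and none was higher, beside 26.6% and 25.0% of all genes. On soft 14 were lower and 5 higher, beside 29.9% and 24.1% of all genes, so that the falls on soft were near the share of all genes.

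**Figure D5:**
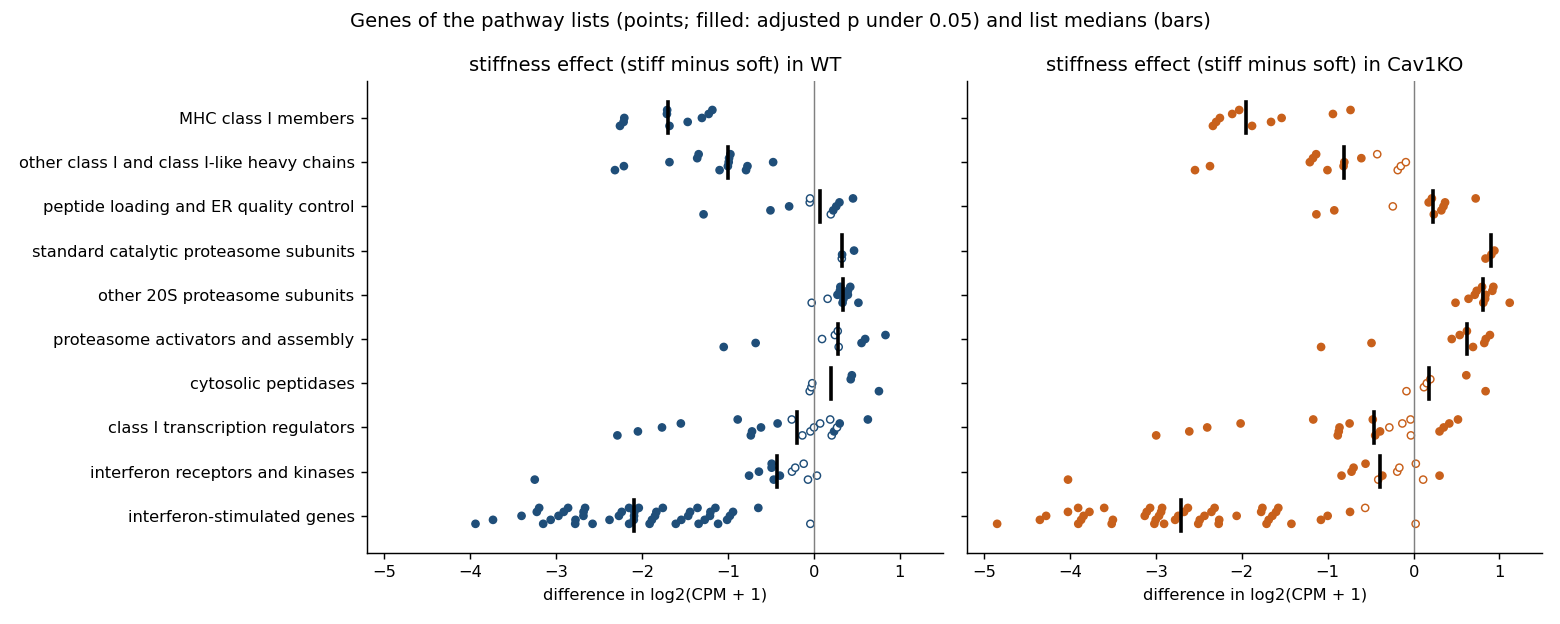
Stiff minus soft in log2(CPM + 1) for the genes of each list (points, filled where the adjusted p was under 0.05) with the median of the list (bars), in WT (left) and Cav1KO (right). The members have medians of -1.70 and -1.95 and the interferon-stimulated genes of -2.09 and -2.70, while the medians of the 20S proteasome subunits lie above 0.

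MHC class II genes, which antigen-presenting cells use, were sparse. Of 10 genes 4 were listed, with summed levels on stiff of 7.73 to 7.75 CPM in WT and 23.5 to 27.1 in Cav1KO cells, and on soft of 19.02 to 24.5 and 69.2 to 73.4. Cd74, the invariant chain, made up most of this in Cav1KO cells, at 20.8 and 16.6 CPM on stiff and 54.1 and 58.6 on soft, against 1.71 and 1.43 and 4.17 and 4.94 in WT cells. It was higher in Cav1KO cells by 2.93 on stiff (adjusted p = 1.28e-06) and 3.37 on soft (adjusted p = 4.97e-07). H2-Ab1 went the other way, at -0.93 on stiff (adjusted p = 0.00242) and -1.42 on soft (adjusted p = 0.000209). It reached 1 CPM in 2 libraries only through WT cells. The other 2 listed genes were not called on either substrate, so the class II genes did not rise as a group. The leukocyte marker Cd14, like Cd74, was higher in Cav1KO cells, by 1.86 on stiff (adjusted p = 2.73e-06) and 1.29 on soft (adjusted p = 2.23e-05). Cd74 and Cd14 move with the higher Psmb9 of the Cav1KO groups, and their part in it was not tested. Of the fibroblast markers, 9 of 12 were lower on stiff in WT and 11 of 12 in Cav1KO cells, beside 26.3% and 28.2% of all genes. This is the same direction as that of the members, and the markers' part in the stiffness effect was not tested either.

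The genes most like each member across the 8 libraries were found by the root mean square difference of log2(CPM + 1) after each gene was centred on its own mean, among 10063 genes with a mean of at least 5 CPM. This is a description of 8 libraries that share 4 conditions. For H2-K1 they were Tgm2, Enpp2 and Gbp2 (0.15, 0.16 and 0.18). For H2-D1 they were Calcoco1, Qsox1 and Ctsb (0.14, 0.19 and 0.20), and for B2m Psap, Tle2 and Itm2b (0.14, 0.15 and 0.16). Members ranked near each other in some cases, with Tapbp in place 6 for Psmb8, B2m in place 8 for Tap1 and place 16 for H2-D1, and Tapbp in place 14 for B2m. H2-D1 ranked 298 for H2-K1, at a difference of 0.62. For H2-T23 the nearest gene, Gpr153, was 0.47 away, farther than the nearest genes of H2-K1 and H2-D1.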

How the data were processed

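The deposited table holds a TMM-normalized CPM signal for each gene and library, made by the authors from poly(A) RNA (500 ng of total RNA, 60-nt single reads, a kit that does not mark strand). The submitters' processing notes name CASAVA 1.8.2, cutadapt, RSEM 1.2.3 and GRCm38. The annotation release, the filter on low genes and the test behind the deposited values are not given in the sources used here. In each library 100% of the values were whole multiples (within 0.01) of the value of 1 read, and these recovered reads were used for counting intervals and for count tests.

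The 12494 genes that reached 1 CPM in 2 or more libraries were fitted as log2(CPM + 1) with limma 3.58.1 (R 4.3.3, mean-variance trend, 4 groups in 1 fit, 4 residual degrees of freedom, two-sided). P-values were Benjamini-Hochberg adjusted over all these genes, with a threshold of 0.05. edgeR 4.0.16 and DESeq2 1.42.0 were run on the recovered reads. Intervals of read ratios are exact binomial ones and cover counting error only. Levels per kb use the longest transcript in GENCODE M21. Positions come from the same annotation and promoters from RefSeq. The fits were tested on simulated counts.

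The members and gene lists were chosen with earlier results of these data known. Genes named from a list are those with the largest called changes and a mean of at least 5 CPM in it, or Nlrc5, Irf1 and the standard subunits whatever their values. A further gene that this rule names is not reported here. Other named genes are said to be chosen after their values were seen, and so were Cd14, Cd74, H2-Ab1 and the absent markers.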

Additional observations from a re-analysis of the deposited data

Results flagged for a closer look

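In the members and pathway lists 18 genes passed the interaction test of stiffness and genotype (limma, WT effect minus Cav1KO effect in log2(CPM + 1), adjusted p under 0.05). Of all 12494 genes tested 10.5% passed it, and the lists were not tested against that share. The 10 of the 18 genes that the naming rule holds are given here. Among the members these were H2-D1 (0.89 ± 0.19 SE, adjusted p = 0.0310) and H2-T23 (-1.48 ± 0.32, adjusted p = 0.0322), the latter with 7 Cav1KO reads on stiff and 38 on soft. On the recovered reads the H2-T23 difference was 0.012 with edgeR (adjusted p = 0.987) and 0.060 with DESeq2 (adjusted p = 0.966), neither past the threshold, and the mean CPM on soft was 4.79 times that on stiff in WT and 5.03 times in Cav1KO cells. The class I-like gene Procr, the endothelial protein C receptor, stood at -0.68 ± 0.15 (adjusted p = 0.0332), with stiff minus soft at -0.77 in WT cells and -0.09 in Cav1KO cells (adjusted p = 0.507). The endoplasmic reticulum chaperones Calr and Pdia3 stood at -0.77 ± 0.10 (adjusted p = 0.00752) and -0.47 ± 0.09 (adjusted p = 0.0273). The proteasome subunits Psma7 and Psmb3 stood at -0.53 ± 0.14 (adjusted p = 0.0461) and -0.60 ± 0.15 (adjusted p = 0.0413), both rising on stiff in each genotype and more so in Cav1KO cells. In the other direction, Stat3 stood at 0.60 ± 0.15 (adjusted p = 0.0414), Oasl2 at 1.501 ± 0.38 (adjusted p = 0.0445) and Samd9l at 1.96 ± 0.32 (adjusted p = 0.0140). The interferon-stimulated genes Oasl2 and Samd9l fell on stiff in both genotypes, with differences of -2.78 and -1.15 in WT cells and of -4.28 and -3.11 in Cav1KO cells.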

How the results depend on the processing

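Over 20 alternatives, the fall of the 10 members on stiff held in every one in WT cells and, but for H2-T23, in Cav1KO cells. Of 990 comparisons of a member's value with an alternative, 912 kept direction and call. The causes of the other changes were not tested. DESeq2 called 2 members higher in Cav1KO cells on stiff. For the difference between the stiffness effects, the members called in the positive direction were 0 without the trend, 3 with quantile normalization and 2 with DESeq2, and those in the negative direction were 0 with a pseudocount of 0.5, with edgeR and with DESeq2. Over all genes the positive and negative calls of this difference were 559 and 750, against 314 and 391 without the trend and 361 and 541 with edgeR. The H2-T23 difference became 0.012 with edgeR and 0.060 with DESeq2, that of Psmb8 0.023 with quantile normalization and 0.092 with plain CPM, and that of Psmb9 -0.14 with a pseudocount of 0.5, -0.0056 with median centring, -0.32 with edgeR and -0.30 with DESeq2. Psmb8 in Cav1KO minus WT became 0.042 with median centring and 0.026 with quantile normalization on stiff, and 0.049 with quantile normalization and 0.074 with plain CPM on soft. The call of Tap2 on stiff was lost without the trend (adjusted p = 0.0510) and with median centring (adjusted p = 0.0561), and that of Tapbp on soft without the trend (adjusted p = 0.0819), with edgeR (adjusted p = 0.0515) and in a fit of the 4 libraries compared (adjusted p = 0.0503). Plain CPM moved the median of all genes for stiff against soft in Cav1KO cells from -0.02 to -0.13.

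Leaving out each library in turn, 1 to 2 members were called higher and 1 to 3 lower in Cav1KO cells on stiff, and 1 to 4 lower on soft. The difference between the stiffness effects was called in 0 to 2 members in the positive and 0 to 1 in the negative direction. Cav1KO minus WT changed sign on stiff for B2m (-0.060 to 0.19), Psmb8 (-0.20 to 0.17) and Psmb10 (-0.042 to 0.21), and on soft for H2-K1 (-0.63 to 0.16), Tap1 (-0.071 to 0.64), Tap2 (-0.36 to 0.056), Psmb8 (-0.36 to 0.29) and Psmb10 (-0.45 to 0.13). The difference of the stiffness effects changed sign for Tap1 (-0.53 to 0.18), Psmb8 (-0.35 to 0.30), Psmb9 (-0.42 to 0.50) and Psmb10 (-0.53 to 0.043). Fits that leave 1 library in a group assume that it varies like the other groups.

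The labels tie the replicate numbers to no shared day or animal. Across 12494 genes the correlation of the deviations of same-numbered libraries ran from -0.37 (WT stiff with WT soft) to 0.42 (WT stiff with Cav1KO stiff). The deviations of the 2 stiff groups thus went partly together, and what same-numbered libraries share was not tested. With the replicate block 10 members remained lower on stiff in each genotype, and no count of called members changed. With 2 libraries in each group, small differences between genotypes could not be resolved, and H2-T23 in Cav1KO cells was limited by its reads.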
